A study of Mus musculus with 6 samples.

Results

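Major histocompatibility complex (MHC) class I molecules show peptides from inside a cell to CD8 T cells, and the 10 genes described here make, load and regulate them. They are the immunoproteasome subunits Psmb8, Psmb9 and Psmb10, the peptide transporter chains Tap1 and Tap2, the loading chaperone tapasin (Tapbp), the regulator Nlrc5, the light chain B2m and the heavy chains H2-K1 and H2-D1. Members were all probe sets whose platform annotation gave 1 of these symbols as the only gene, which took 27 of the 45101 probe sets on the array and 10 of its 18194 genes with such an annotation. A further 3 probe sets, annotated with H2-K1 or H2-D1 together with another gene, were not members. RNA was measured in the tumour stroma of 6 male B6 mice, 3 of genotype Pdia4-/- (KO) and 3 wild-type (WT), all 4 weeks after tumour cells were placed under the skin, with 1 array per mouse. Pdia4 is an enzyme of the endoplasmic reticulum (ER) that forms disulphide bonds. The tumour cells are called LLC (Lewis lung carcinoma) in one label and GK1 in the series design, and which applies is unknown here. How stroma was separated from tumour cells, how the Pdia4 allele was made and whether the tumour cells carried it are not stated in the labels.

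In cells, the proteasome cuts cytosolic proteins into peptides, the Tap1 and Tap2 pair carries them into the ER, and tapasin helps to fit them into the groove formed by a heavy chain with B2m. Interferon gamma replaces 3 catalytic subunits of the constitutive proteasome with Psmb8, Psmb9 and Psmb10, which favours peptides that class I can hold. Nlrc5 is a transactivator that drives class I, B2m, Tap1 and Psmb9 promoters, mainly in lymphoid and interferon-treated cells.

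Several of these genes are neighbours, and their promoter windows (RefSeq, GRCm38.p6, 250 bases before to 50 after the start) are shown because some members share one. In the reference gene order Psmb9, Tap1, Psmb8 and Tap2 lie next to each other on chromosome 17, where 7 of the 10 members are found. Psmb9 and Tap1 are read in opposite directions, and their 300-base windows overlap by 275 bases. The window of Tap1 (chr17:34187306-34187605, + strand) is given first, with the 225 bases between the start sites of both genes in capitals.
Tap1: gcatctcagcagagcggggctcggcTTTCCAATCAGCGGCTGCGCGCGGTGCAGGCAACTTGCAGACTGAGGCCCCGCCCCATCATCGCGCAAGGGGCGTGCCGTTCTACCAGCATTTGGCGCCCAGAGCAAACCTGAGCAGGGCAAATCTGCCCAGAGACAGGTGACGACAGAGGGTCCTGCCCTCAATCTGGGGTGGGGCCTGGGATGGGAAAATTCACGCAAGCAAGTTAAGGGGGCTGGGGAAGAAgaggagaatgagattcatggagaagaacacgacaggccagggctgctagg
The next windows are those of the 3 class I chains, at chr2:122147437-122147736 on the + strand for B2m, chr17:34000284-34000583 on the - strand for H2-K1 (1 of 2 starts listed for it) and chr17:35262844-35263143 on the + strand for H2-D1. They are shown because their windows held interferon response and kappaB motif matches, marked in capitals.
B2m: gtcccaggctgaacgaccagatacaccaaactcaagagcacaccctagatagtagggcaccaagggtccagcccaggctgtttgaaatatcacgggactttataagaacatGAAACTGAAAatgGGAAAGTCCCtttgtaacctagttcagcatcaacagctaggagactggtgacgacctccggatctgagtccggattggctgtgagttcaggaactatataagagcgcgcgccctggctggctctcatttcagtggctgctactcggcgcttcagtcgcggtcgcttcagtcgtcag
H2-K1: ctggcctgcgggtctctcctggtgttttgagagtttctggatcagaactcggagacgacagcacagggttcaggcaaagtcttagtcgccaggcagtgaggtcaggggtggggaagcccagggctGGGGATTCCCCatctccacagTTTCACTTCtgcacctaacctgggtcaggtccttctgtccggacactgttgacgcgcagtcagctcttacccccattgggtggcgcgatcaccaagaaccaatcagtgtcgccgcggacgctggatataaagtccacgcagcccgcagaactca
H2-D1: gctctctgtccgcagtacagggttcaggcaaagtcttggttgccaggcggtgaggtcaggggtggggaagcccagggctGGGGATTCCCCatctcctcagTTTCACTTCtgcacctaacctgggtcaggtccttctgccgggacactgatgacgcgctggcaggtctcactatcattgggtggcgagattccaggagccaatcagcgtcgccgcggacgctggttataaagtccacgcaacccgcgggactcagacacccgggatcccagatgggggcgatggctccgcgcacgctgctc

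Motifs were searched as letters on both strands, and a match is a description of the sequence only. The kappaB core (GGGA, any base, T, any 2 bases, CC) was in the windows of all 3 class I chains and in 4.2% of the 32851 promoter windows. The interferon response core (GAAA, any 2 bases, GAAA), held by 3.4% of windows, was in that of B2m. A related form with a shorter spacing, GAANNGAAA, chosen after the windows were inspected and held by 7.5% of them, was in those of H2-K1 and H2-D1. Psmb6, a constitutive proteasome subunit outside the members, also held this form in its window. Of the 8 members with a window, the other 5 (Psmb8, Psmb9, Psmb10, Tap1 and Tapbp) held none of these 3 motifs. The GAS core TTCNNNGAA (8.3% of windows) was found in Psmb8 alone among the 8. CCAAT, present in 37.4% of windows, was in all of the 8 except Psmb8 and Psmb10. No window for Nlrc5 or Tap2 was used here.

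The arrays had 21202 to 22185 Present calls each. KO replicate 3 stood apart: its array name in the file header carries another prefix than the other 5, and its log2 signals correlated with theirs across probe sets at r = 0.889 to 0.946. No label explains the prefix, so main results are followed by the value without that array. Pdia4 had a signal of 2324.2, 1521.1 and 1402.1 in KO and 3941.6, 2765.6 and 4103.9 in WT stroma on its brighter probe set, so KO arrays were lower without loss of the signal (log2 difference -1.06, limma adjusted p = 0.161). No label gives the deleted exons, so whether this probe set lies within them is unknown and the signal is a limited check of genotype. β-actin 3' to 5' signal ratios, a sign of RNA quality, were 1.51 to 1.99 in KO and 1.66 to 4.26 in WT. Fibroblast markers of stroma were Present (Col1a1, Col1a2, Pdgfra, Dcn), as was the pan-leukocyte gene Ptprc, and Epcam, an epithelial adhesion gene, was Present on none of the 6 arrays. The keratins Krt8 and Krt18 were Present on all 6.

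All 3 immunoproteasome subunits, both transporter chains, tapasin and Nlrc5 had a higher signal on each KO array than on each WT array on their brightest probe set, by 1.25-fold to 2.35-fold in mean signal. Of the 10 genes 8 had groups that did not overlap in this way, against 12.7% of the 11357 genes tested. By probe set, 20 of the 21 tested had a higher mean log2 signal in KO, as did 46.6% of all probe sets, and 11 had separate groups, against 13.5%. None of the 21 member probe sets tested passed Benjamini-Hochberg adjustment over all 22063 probe sets, of which limma called 0.0272%. Without adjustment 9 of the 21 had p under 0.05 and a higher KO signal, a direction in which 9.99% of all tested probe sets did, and 0 were lower (10.2% of all). The 9 became 10 with 75th percentile scaling, trend and robust eBayes or array weights, and 8 with quantile normalization or the replicate block. They became 6 with no filter, 6 to 9 when 1 array was left out and 0 when arrays were divided by their β-actin 5' probe set. The β-actin 3' to 5' ratio was 4.26 and 2.70 on WT replicates 1 and 3, against at most 1.99 in KO. In that division RNA quality and genotype thus cannot be told apart. The same arrays enter the main comparison, and the part of RNA quality in its differences was not tested. The median log2 difference of the 10 genes was 0.69, and 0.62 without KO replicate 3, against -0.10 over all genes tested.

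**Figure D1:**
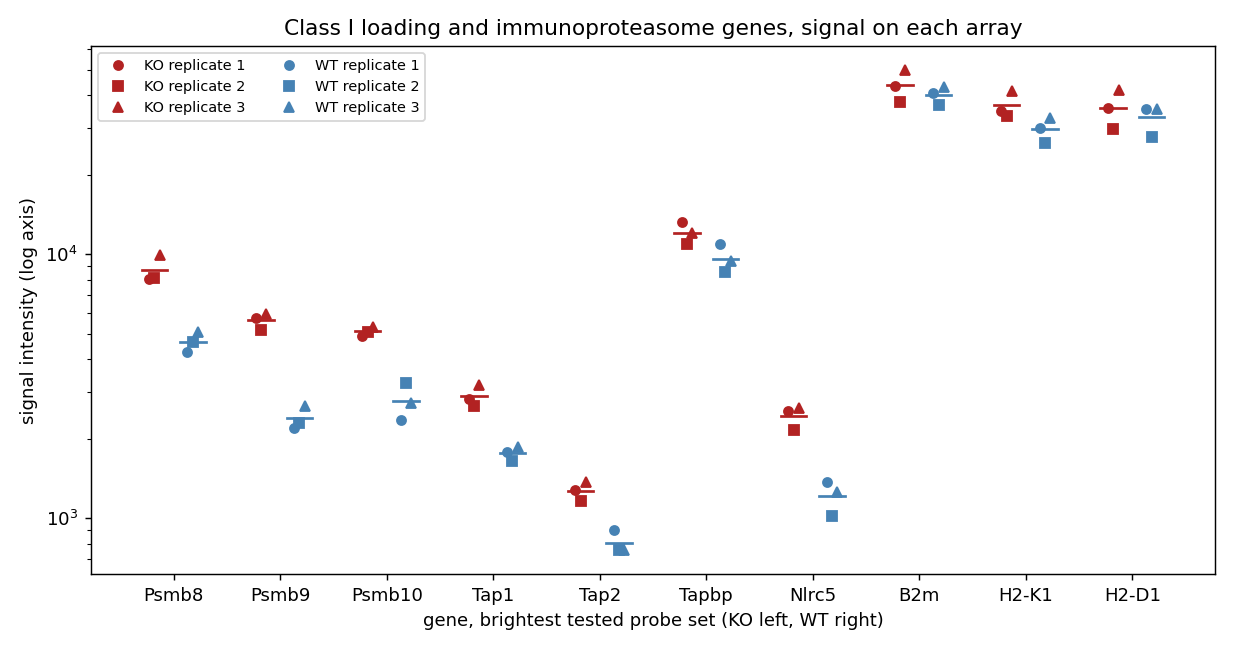
Signal intensity (log axis) of the brightest tested probe set of each of the 10 genes on each array, with KO at the left and WT at the right of each gene, 1 symbol per replicate and a bar at the mean of 3 arrays. For Psmb8, Psmb9, Psmb10, Tap1, Tap2, Tapbp, Nlrc5 and H2-K1 the KO points lie above all WT points, while those of B2m and H2-D1 overlap.

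Psmb9, which takes the place of the caspase-like subunit, gave 5749.5, 5148.7 and 5946.3 in KO, against 2205.3, 2292.4 and 2666.2 in WT stroma. The lowest KO array was well above the highest WT array. Mean signals were 5615 ± 416 in KO and 2388 ± 245 in WT (SD, n = 3 each), a log2 difference of 1.24 (SE 0.19, limma adjusted p = 0.13). Of all tested probe sets 3.17% had a larger log2 difference, and Psmb9 ranked 46 by p. It was 1.19 without KO replicate 3.

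Psmb8, which takes the place of the chymotrypsin-like subunit, read 8050.9, 8163.7 and 9966.0 in KO, against 4276.4, 4666.1 and 5059.8 in WT stroma on its brighter probe set. The groups were separate, with means of 8727 ± 1075 in KO and 4667 ± 392 in WT (SD, n = 3 each). The log2 difference was 0.90 (SE 0.20, limma adjusted p = 0.146), and 0.80 without KO replicate 3. Its dimmer probe set gave nearly the same difference, 0.89 (SE 0.36, limma adjusted p = 0.234), although its signals of 191.5 to 244.4 in KO overlapped the 75.1 to 200.6 in WT.

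Psmb10, which takes the place of the trypsin-like subunit, had 4921.1, 5057.9 and 5314.9 in KO, against 2346.8, 3262.4 and 2730.8 in WT stroma. The KO arrays lay close together and above the WT arrays, at 5098 ± 200 in KO and 2780.0 ± 460 in WT (SD, n = 3 each). The log2 difference was 0.89 (SE 0.21, limma adjusted p = 0.148), and 0.86 without KO replicate 3.

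The constitutive subunits that these 3 replace had overlapping groups in all 3 cases. Psmb5, the constitutive partner of Psmb8, averaged 5516 ± 390 in KO and 5254 ± 371 in WT (SD, n = 3 each), with overlapping groups. Its log2 difference of 0.07 had a 95% interval of -0.37 to 0.51. Psmb6, the partner of Psmb9, averaged 6998 ± 883 in KO and 7134 ± 220 in WT (SD, n = 3 each), a log2 difference of -0.03 (95% interval -0.49 to 0.42). Psmb7, the partner of Psmb10, ranged from 2007.5 to 6703.7 in KO and from 999.0 to 6325.0 in WT, and its log2 difference of 0.42 had a 95% interval of -1.24 to 2.09.

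Within each array the log2 signal of Psmb8 minus that of Psmb5 was 0.66 ± 0.28 in KO and -0.17 ± 0.19 in WT (SD, n = 3 each). The gap between genotypes was 0.83, with every KO array above every WT array. For Psmb9 minus Psmb6 the values were -0.31 ± 0.18 in KO and -1.58 ± 0.17 in WT (SD, n = 3 each), a gap of 1.27, again with separate groups. In both pairs the two-sided exact permutation p was 0.1, the smallest that 3 arrays against 3 allow, and 0.15 after Benjamini-Hochberg adjustment over the 3 pairs. For Psmb10 minus Psmb7 the groups overlapped (0.68 ± 0.96 in KO and 0.21 ± 1.10 in WT, SD, n = 3 each; exact permutation p = 0.6, also after adjustment). Among other proteasome genes, Psme1, a subunit of the interferon-inducible PA28 activator, averaged 12414 ± 325 in KO and 8594 ± 965 in WT (log2 difference 0.54, SE 0.19, limma adjusted p = 0.205). The assembly factor Pomp had a log2 difference of 0.25 (SE 0.19).

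**Figure D2:**
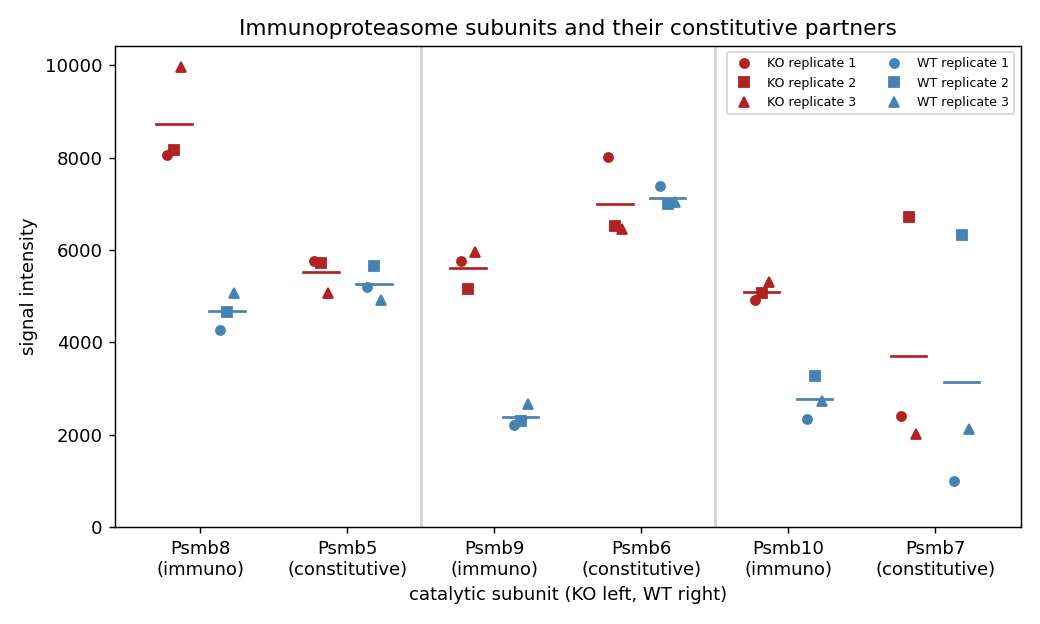
Signal intensity (linear axis from 0) of each immunoproteasome subunit and its constitutive partner on each array, KO left and WT right, with 1 symbol per replicate and a bar at the mean of 3 arrays. Psmb8, Psmb9 and Psmb10 are separate between genotypes, Psmb5 and Psmb6 overlap, and replicate 2 of both genotypes is high for Psmb7.

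Nlrc5 gave 2540.3, 2159.4 and 2619.2 in KO, against 1374.2, 1018.7 and 1257.8 in WT stroma, on its single probe set. All KO arrays were above all WT arrays, at 2440 ± 246 in KO and 1217 ± 181 in WT (SD, n = 3 each). The log2 difference was 1.01 (SE 0.21, limma adjusted p = 0.14), second to Psmb9 among the 10 genes, and 0.96 without KO replicate 3.

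Tap1 read 2837.9, 2667.4 and 3200.0 in KO, against 1785.9, 1654.4 and 1862.0 in WT stroma. Its groups were separate, at 2902 ± 272 in KO and 1767 ± 105 in WT (SD, n = 3 each), with a log2 difference of 0.71 (SE 0.19, limma adjusted p = 0.162), and 0.64 without KO replicate 3. Tap1 and Psmb9, whose starts are divided by the 225 bases printed in capitals, had log2 differences of 0.71 and 1.24. Their 95% intervals were 0.27 to 1.16 and 0.78 to 1.69, whose overlap does not compare genes read on the same arrays. Centred on each gene's mean log2 signal, Psmb9 stood at 0.65, 0.50 and 0.70 in KO, against 0.33, 0.24 and 0.50 for Tap1. In WT Psmb9 stood at -0.73, -0.67 and -0.45, against -0.34, -0.45 and -0.28 for Tap1. Psmb9 thus lay above Tap1 on each KO array and below it on each WT array, which was not tested. Centring places the gene with the larger difference so on average, and the pattern largely restates the log2 differences of 0.71 and 1.24. Tap2, the other transporter chain, read 1276.6, 1158.0 and 1370.7 in KO, against 898.6, 756.4 and 756.4 in WT (log2 difference 0.66, SE 0.20, limma adjusted p = 0.173).

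Tapasin bridges the transporter and the empty class I molecule. Tapbp read 13221.8, 10909.4 and 12018.1 in KO, against 10895.6, 8559.1 and 9407.0 in WT stroma on its brighter probe set. The groups were separate by a narrow margin, and the log2 difference of 0.33 (SE 0.20, limma adjusted p = 0.372) had a 95% interval of -0.14 to 0.80. Its dimmer probe set was Present on 2 KO and 0 WT arrays and was not tested, at 292.4 to 320.9 in KO and 202.4 to 247.6 in WT.

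Of 5 measured genes of loading and peptide trimming, 1 had a higher and 4 had a lower mean log2 signal in KO, a direction that 57.9% of all tested genes had, and 0 passed over all probe sets. Canx, calnexin, which holds newly made heavy chains, averaged 10616 ± 1826 in KO and 15763 ± 1064 in WT on its brightest probe set (log2 difference -0.58, limma adjusted p = 0.207), but its other probe sets gave 0.07 and -0.32. Calr, calreticulin, was at -0.27, -0.24 and -0.24 on its 3 probe sets. Pdia3, the disulphide isomerase bound to tapasin, had -0.17 on its brighter probe set and -0.81 on its dimmer one (limma adjusted p = 0.741 and 0.18). Erap1, which trims peptides in the ER, was at -0.02 on its brighter probe set and 0.06 on the other. Tapbpl, a tapasin relative that edits peptides, averaged 515 ± 67.7 in KO and 366 ± 12.1 in WT (log2 difference 0.48, limma adjusted p = 0.236). By brightest probe set, 2 of 5 genes (Canx and Calr) had each KO array below each WT array, against 20.6% of all tested. The reverse held for 1, Tapbpl, against 12.7%.

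The class I chains themselves were among the brightest signals on the arrays and differed little on the probe sets that were brightest. B2m gave 43246.3, 37844.8 and 49918.3 in KO, against 40756.0, 36637.3 and 42896.7 in WT stroma, with overlapping groups. Its log2 difference was 0.12 (95% interval -0.36 to 0.59, limma adjusted p = 0.754), and 0.09 on its other probe set, which read -0.0032 without KO replicate 3. The highest signal of any probe set other than controls was 59765 to 88767 per array.

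H2-K1, a classical heavy chain, read 34868.0, 33495.5 and 41577.8 in KO, against 30077.8, 26478.5 and 32906.9 in WT stroma on its brightest probe set. The groups were separate by a narrow margin, and the log2 difference was 0.30 (SE 0.20, limma adjusted p = 0.414). Its dimmer probe sets gave 0.15, 0.25 and 0.71, the last at 1641.8, 3566.5 and 2583.0 in KO, against 1186.2, 1954.9 and 1502.3 in WT, with overlapping groups.

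H2-D1, the other classical heavy chain, had 9 probe sets. The brightest gave 35827.1, 29720.3 and 42038.2 in KO, against 35578.6, 27831.0 and 35515.1 in WT stroma. The groups overlapped, and the log2 difference was 0.12 (95% interval -0.41 to 0.64, limma adjusted p = 0.783). A dimmer H2-D1 probe set read 2252.9, 3030.9 and 3326.8 in KO, against 1526.7, 2138.9 and 1688.7 in WT, all KO arrays being higher (log2 difference 0.68, SE 0.24, limma adjusted p = 0.202). Another read 9373.1, 10096.2 and 10967.1 in KO, against 7459.6, 7867.6 and 6642.5 in WT, again with separate groups (log2 difference 0.47, SE 0.19, limma adjusted p = 0.235). The other tested H2-D1 probe sets spanned -0.32 to 0.87, and the lowest of these passed the filter on detection calls through 1 KO and 2 WT arrays.

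Arranged by brightness, the 6 class I chain probe sets with a mean signal above 20000 had log2 differences of 0.09 to 0.30 with a median of 0.13. The 7 below that level had -0.32 to 0.87 with a median of 0.47. The level was chosen after the values were seen, and no test was made. Of the 11 tested heavy chain probe sets 10 have identifiers ending in _x_at, the array maker's mark for probes that can match other transcripts, so H2-K1, H2-D1 and related chains cannot be fully told apart. The exception was the H2-D1 probe set with the difference of 0.68. The part of signal brightness in these differences was not tested.

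**Figure D3:**
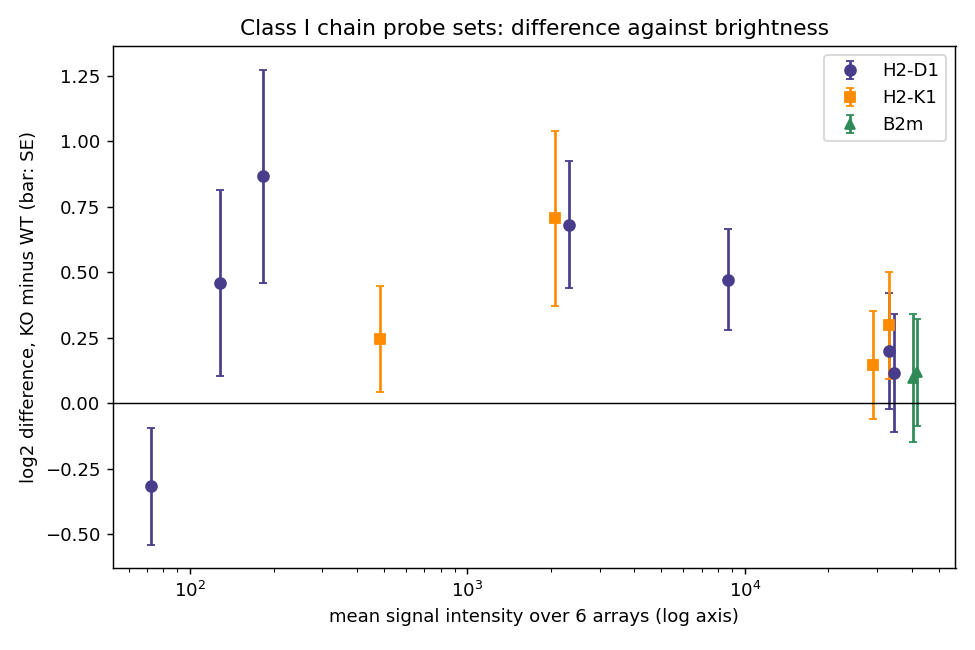
Log2 difference (KO minus WT, bars are the SE from limma) of the 13 tested probe sets of B2m, H2-K1 and H2-D1 against their mean signal over the 6 arrays (log axis). Above a mean signal of 20000 the differences lie between 0.09 and 0.30, and below it between -0.32 and 0.87.

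Other class I and class I-like chains were compared from a list of 23 genes, of which 8 had a tested probe set of their own. All 8 had a positive log2 difference, with a median of 0.62, and 5 had an unadjusted p under 0.05, against 8.91% of all tested genes in that direction, while 0 passed over all probe sets. H2-Q5 averaged 1034 ± 254 in KO and 448 ± 66.6 in WT (log2 difference 1.19, limma adjusted p = 0.14). H2-M3, which presents formylated peptides, averaged 3326 ± 325 in KO and 2143 ± 129 in WT (log2 difference 0.63, limma adjusted p = 0.175). H2-T24 had a log2 difference of 0.82, and Hfe, a class I-like protein of iron control, 0.62 (limma adjusted p = 0.191 and 0.2).

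**Figure D4:**
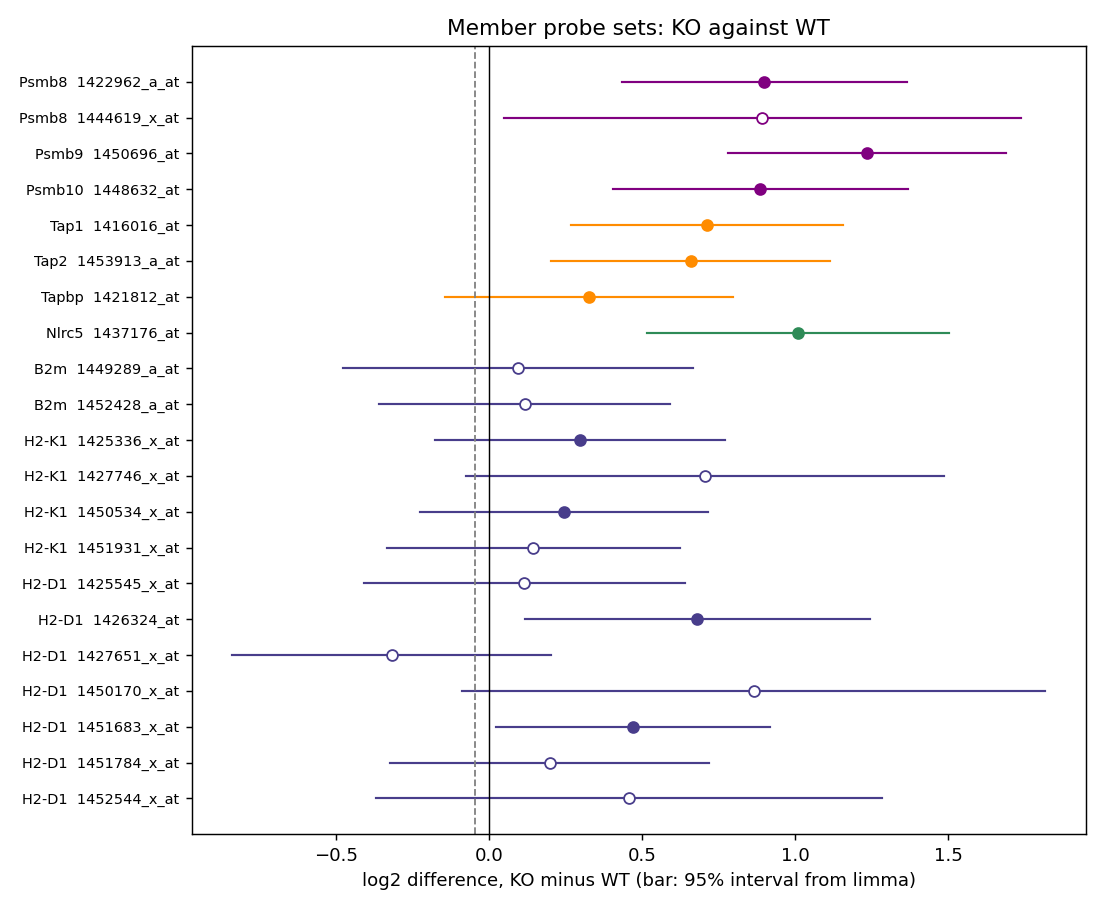
Log2 difference (KO minus WT) of the 21 tested member probe sets with 95% intervals from limma, coloured by role: immunoproteasome purple, transport and loading orange, Nlrc5 green, class I chains dark blue. Filled points mark probe sets with each KO array above each WT array, and the dashed line is the median of all tested probe sets, -0.05. The 3 brightest-set immunoproteasome points lie at 0.89 to 1.24, whereas B2m lies at 0.09 and 0.12.

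The untested members carried little signal. Besides the dimmer Tapbp probe set, they were 3 of Tap1 and 2 of H2-D1. These 5 read 2.3 to 66.4 in KO and 1.7 to 39.5 in WT, and only 1, of Tap1, had Present calls, on 2 KO arrays. Thus 4 of the 27 were Absent on all 6 arrays, and 20 were Present on all 6.

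Among the KO arrays, replicate 3 was the highest for 9 of the 10 genes and replicate 2 the lowest for 8. Among the WT arrays replicate 2 was the lowest for 7, tied with replicate 3 for Tap2, and replicate 1 for the other 3, which were Psmb8, Psmb9 and Psmb10. The highest WT array was replicate 1 for 4 genes, replicate 2 for 1 and replicate 3 for 5. How many genes of the whole array share these orders was not tested. On the mean of the 10 centred log2 profiles, KO arrays stood at 0.31, 0.18 and 0.45, against -0.29, -0.40 and -0.25 for WT arrays. Tap1 lay nearest to that mean, with a root mean square distance of 0.05 log2 units over the 6 arrays, and Psmb9 farthest at 0.31. Of the 11347 other genes, the 5 nearest were Unc93b1, which brings nucleic acid sensing Toll-like receptors to endosomes, Snx8, a sorting nexin, Sema4a, a semaphorin, Vps54, a subunit of a Golgi tethering complex, and 2900026A02Rik. Their distances were 0.06 to 0.08, against a median of 0.48 over all genes compared. All 5 have log2 differences of 0.54 to 0.68. Because the 5 were picked as the nearest to that mean, small distances and differences of about this size follow from the choice.

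Among 14 measured genes of interferon gamma signalling and class I regulation, 12 were higher and 2 lower in KO, with a median log2 difference of 0.27. Of all 11357 tested genes 4782 were higher. In 10 of the 14 the groups overlapped, as they did in 7577 of the 11357 tested genes. An unadjusted limma p under 0.05 with a higher KO signal was met by 3, against 8.91% of all tested genes. Only 1, Ifng, passed over all probe sets, as did 4 of the 11357 genes. Interferon gamma mRNA (Ifng) passed narrowly, at 498 ± 50.4 in KO and 68.1 ± 19.8 in WT (SD, n = 3 each; log2 difference 2.91, limma adjusted p = 0.0479). It lost the call when any 1 array was left out (limma adjusted p = 0.0762 to 0.208), with the replicate block (0.187) and with no filter (0.197). The call was also lost with 75th percentile, quantile or cyclic loess scaling (0.0697, 0.0672 and 0.0549). Trend and robust eBayes, array weights and the β-actin 5' division kept it (limma adjusted p = 0.0321, 0.0271 and 0.0038). Irf1, the interferon-induced factor that binds interferon response elements, read 5046.9, 5495.0 and 10874.9 in KO, against 2256.2, 2621.6 and 2218.6 in WT (log2 difference 1.51, limma adjusted p = 0.14), and 1.16 without KO replicate 3. Irf8, a myeloid interferon regulatory factor, had 0.61 on its brighter probe set and -0.01 on the other. Ciita, the class II counterpart of Nlrc5, had 0.67 and 0.73, and Jak2, a kinase of the interferon gamma receptor, 0.48 and 0.77. Jak1, the partner kinase, had 0.21 on its brightest probe set, 0.03 on one of similar brightness and -1.25 on a dim one (limma adjusted p = 0.762, 0.941 and 0.151). The receptor chains Ifngr1 and Ifngr2 were at 0.11 and -0.01, and Rfx5, a DNA-binding partner of Nlrc5, at -0.33.

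None of 29 cell type markers tested passed over all probe sets (limma adjusted p = 0.107 to 0.955), and in whole stroma more cells of a type and more RNA per cell cannot be told apart. The summed signal of 6 T cell markers was 6208 to 7932 in KO and 1736 to 4244 in WT, with 5 of 5 tested markers higher and Cd4 Present on no array. Of the 5, Cd3e was Present on 3 KO arrays but on only 1 WT array. Cd8b1, a CD8 coreceptor chain, had a log2 difference of 2.58. The sum of 3 NK cell markers was 5534 to 7556 in KO and 2700 to 3316 in WT, with 2 of 3 higher. Klrd1 and Nkg7 made up nearly all of it, with log2 differences of 1.01 and 1.36, whereas Ncr1 had -0.28 with overlapping groups. For 4 dendritic cell markers the sum was 3443 to 3754 in KO and 1368 to 1605 in WT, with 1 of 2 tested higher and Xcr1 Present on no array. Nearly all of that sum was Itgax, which myeloid and NK cells can also carry, at 3258.9, 3471.2 and 3168.9 in KO, against 1279.0, 1307.8 and 1074.5 in WT, while Flt3 had a log2 difference of -0.31. The sum of 3 endothelial markers was 709 to 1071 in KO and 457 to 481 in WT. Cdh5, Present on all 6 arrays on its tested probe set, had a log2 difference of 0.74. Pecam1 was also higher in KO, but was Present on 3 KO and 0 WT arrays. It passed the filter on detection calls through KO arrays alone, so its direction is not counted here. Kdr was Present on 1 KO array and was not tested. By contrast, 4 epithelial markers summed to 2416 to 6569 in KO and 11539 to 15386 in WT, with 1 of 3 tested higher. Krt18 had a log2 difference of -1.95 and Krt8 of -1.77, and Epcam was Present on no array.

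Sums of the other marker lists overlapped between genotypes. Ptprc, carried by all leukocytes, read 29780.1, 24010.1 and 32408.5 in KO, against 24468.3, 16821.9 and 24400.8 in WT (log2 difference 0.40, SE 0.24). The sum of 4 macrophage markers was 43612 to 65083 in KO and 35853 to 54868 in WT, that of 3 neutrophil markers 130202 to 175834 in KO and 68428 to 176172 in WT, and that of 4 fibroblast markers 5518 to 11812 in KO and 8356 to 13723 in WT. All 4 tested macrophage and 3 neutrophil markers were higher, as were 2 of 4 fibroblast markers. Each of these 4 fibroblast markers had separate groups, in opposite directions. Col1a1 and Col1a2 had log2 differences of 1.70 and 1.27 (1.31 and 0.61 without KO replicate 3), and Pdgfra and Dcn of -1.13 and -1.08. Both tested B cell markers were lower, with sums of 168 to 1238 in KO and 134 to 3840 in WT. The part of these cell types in the class I results was not tested.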

How the data were processed

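Per the file headers and the labels' protocols, biotinylated cRNA from 6 stroma samples was hybridised to Affymetrix Mouse430_2 arrays, and the authors deposited for each probe set a linear intensity with its detection call. The deposited expression report of 1 array names the Statistical algorithm and a target value of 500, with no software version. The series value table equalled the array intensities in 270606 of 270606 cells. The authors' deposited table of 1554 signed folds, taken as a score because its making is not stated, held 0 of the 27 member probe sets. Values were taken as already normalized, log2 was applied without a pseudocount, 64 control probe sets were left out, and probe sets Present on at least 3 of 6 arrays were tested (22063). The genotypes were tested two-sided by limma 3.58.1 under R 4.3.3, with Benjamini-Hochberg adjustment and a threshold of 0.05, and the procedure was tested on simulated data. The brightest tested probe set stands for a gene. Arrays carry no depth, and their number limits precision. Separate handling of the animals is not stated, and the p-values reflect only how far these 6 samples spread, which may be technical. Symbols followed the platform annotation, with 34754 of 34958 matched to RefSeq and 0 changed. The members, gene lists and the rule for named genes (all members, listed partners with an unadjusted p under 0.05, up to 4 other class I chains, marker genes and the 5 nearest profiles) were chosen with earlier results of these data known. Calr, Erap1, Pomp, Ifngr1, Ifngr2 and Rfx5 fall outside that rule and were named after their values were seen. Alternatives were other scalings and filters, other models of the spread, a replicate block and leaving out each array.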

Additional observations from a re-analysis of the deposited data

How the results depend on the processing

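The number of calls over all probe sets, 6 in the analysis as reported, became 1 with 75th percentile scaling and 0 with quantile normalization, cyclic loess, no filter or Present calls on all 6 arrays. It was 27 with trend and robust eBayes, 19 with array weights and 1135 (82 higher and 1053 lower) when each array was divided by its β-actin 5' probe set. Leaving out 1 array gave 0 to 2, the 2 being without WT replicate 2. Unadjusted p under 0.05 was met by 2205 higher and 2249 lower probe sets as reported, by 2239 and 2206 with quantile normalization, 2442 and 2106 with cyclic loess, 2919 and 1859 with no filter, 1823 and 2038 with Present calls on all 6 arrays, 2316 and 2400 with the replicate block, and 1650 and 1736 without KO replicate 3. KO and WT arrays of the same replicate number had correlations of deviations from their group means of 0.157, 0.025 and -0.101. Arrays of unlike numbers had -0.365 to 0.296. With 3 arrays per group these values cannot decide whether the samples were paired. With the replicate block 0 were called. Among members, 0 were called except 1, Psmb9, with trend and robust eBayes (adjusted p = 0.046, range over the alternatives 0.046 to 0.444). That division lowered every log2 difference by the same amount (-0.6549), so the signs below follow from that constant and say nothing particular to the members. It moved the median of all probe sets to -0.70 and that of the 10 genes to 0.0313, and values that turned negative were those of Tapbp (-0.33), B2m (-0.56 and -0.54), H2-K1 (-0.36, -0.41 and -0.51) and H2-D1 (-0.54, -0.18, -0.46 and -0.20). Psmb8, Psmb9, Psmb10, Nlrc5, Tap1 and Tap2 kept a positive sign under every alternative, Tap2 at 0.00 after that division. So did the H2-K1 probe set of 0.71 and the H2-D1 probe sets of 0.68 and 0.87, at 0.05, 0.03 and 0.21 after that division. Without 1 array, the B2m probe set of 0.09 ranged from -0.0784 to 0.23 and the brightest of H2-D1 from -0.0058 to 0.24, negative without KO replicate 3 or WT replicate 2. The Psmb10 and Psmb7 gap ranged from -0.12, without WT replicate 2, to 1.01, that of Psmb8 and Psmb5 from 0.67 to 0.94 and that of Psmb9 and Psmb6 from 1.17 to 1.36. The median of the 10 genes ranged from 0.62 to 0.75.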
